A study of Mus musculus with 4 samples.

Results

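CD8 alpha beta T cells are described here from single-cell RNA-seq of the small intestine of 4 mice after ischaemia and reperfusion. Their number was 72 of 5876 kept cells, or 1.23%. The members were chosen by their own UMI counts, so the genes of the rule are described and not tested. A cell was a member when at most 10% of its UMIs (unique molecular identifiers, 1 per captured RNA molecule) came from mitochondrial genes and it held at least 1 UMI of Cd3e, Cd3g or Cd3d and at least 1 of Cd8b1, with 0 of Trdc, Cd4 and Cd79a. All 4 mice carried floxed alleles of Foxc1 and Foxc2. The 2 Control mice were Foxc1fl/fl;Foxc2fl/fl, and the 2 EC-Foxc-DKO mice carried Cdh5-CreERT2 in addition, a tamoxifen-inducible Cre driven by an endothelial promoter. The mice were adult males given tamoxifen, the superior mesenteric artery was clamped and released, and the distal jejunum was taken 18.5 h after injury. Each library was 1 mouse, and the mice are called Control 1, Control 2, DKO 1 and DKO 2. Every value is therefore from injured gut.

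CD8 alpha beta T cells recognise peptides on MHC class I through an alpha beta T cell receptor, with the CD8 alpha and beta chains as coreceptor. Naive cells circulate through lymph nodes guided by the chemokine receptor Ccr7, and leave them through the sphingosine phosphate receptor S1pr1. Cells that settle in the gut epithelium lose that programme, bind E-cadherin through the integrin chain CD103 (Itgae), and carry granzymes.

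The numbers of CD8 alpha beta cells were 7 in Control 1, 12 in Control 2, 41 in DKO 1 and 12 in DKO 2. They held 81493, 55198, 236864 and 85992 UMIs in all, with medians of 6150, 4219, 5600 and 3568 per cell. DKO 1 thus gave more cells and UMIs than the other 3 mice together. In a sum of this depth 1 UMI is worth 12.3, 18.1, 4.22 and 11.6 CPM (counts per 1e+06 UMIs) in the same order. The libraries shared 51 barcodes among themselves, and 0 of the 72 cells had a barcode found in another library.

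The label was checked against genes that the gate did not use, and only some of them set the cells apart from gamma delta T cells, taken as T cells with Trdc and without Cd8b1 and Cd4. A UMI of Trac, Trbc1 or Trbc2, the constant segments of the alpha beta receptor, was present in 72 of 72 cells, and Cd8a in 69. Gamma delta cells carried these as well: Trbc2 was seen in 94.4% of CD8 alpha beta and 91.6% of gamma delta cells, Trbc1 in 61.1% and 67.9%, Cd8a in 95.8% and 87.8%, and Trac in 81.9% and 56.1%. Gzma (granzyme A) was seen in 36 cells and Itgae in 37, or 50.0% and 51.4%, below the 76.0% and 92.0% of gamma delta cells. These shares exceed the background of free RNA, since Gzma was seen in 8.13% and Itgae in 0.725% of 2484 epithelial cells, whose median depth was 20054.5 to 25025 UMIs by mouse. The gamma delta receptor gene Tcrg-C1 had 10 UMIs, spread over 6 cells (8.33%, against 88.5% of gamma delta cells). Tcrg-C4 and Tcrg-C2 averaged 123 ± 99.4 and 98.2 ± 58.1 CPM (SD, n = 4 mice). The list of 7 gamma delta markers summed to 85.9, 543, 232 and 174 CPM in the order Control 1, Control 2, DKO 1, DKO 2, against 3024, 3289, 3057 and 1551 in gamma delta cells, where Trdc, which the gates used, was the most abundant. The list of 10 helper markers summed to 380, 399, 114 and 140 CPM, with Ctla4 the most abundant and Maf at up to 172 CPM, or up to 22.7 without the largest cells described below. The helper genes Foxp3, Cd40lg, Il2ra and Tnfrsf4, the natural killer genes Ncr1, Klrb1c and Klra8, the B cell genes Ms4a1 and Pax5, and all 5 dendritic cell markers were at 0. Of the natural killer or innate lymphoid list Rora, Eomes and Klra4 had UMIs, at up to 109, 36.2 and 4.22 CPM in a mouse.

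At the edges of the gate, 10 of the 72 cells held 1 UMI of Cd8b1 and 1 cell held 1 UMI of the Cd3 genes. The highest mitochondrial share inside was 9.86% and the lowest outside 10.1%. Of the other T cells, 187 had none of Cd8b1, Trdc and Cd4, and 98 of those had Cd8a, which intestinal T cells of other classes also carry as a homodimer. Among kept cells with UMIs of the Cd3 genes and Cd8b1, 4 had a UMI of Cd79a. Of those without Cd79a, 2 had a UMI of Trdc and 2 a UMI of Cd4, and the same cell could count for both.

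The pair of largest cells carried RNA of other kinds. A Control 1 cell had 37502 UMIs, 46.0% of all CD8 alpha beta UMIs of that mouse, and 14.4% of its UMIs came from the 10 enterocyte markers. A DKO 2 cell had 49610 UMIs, 57.7% of that mouse's total, with 2.67% from those markers and 13 UMIs of the proliferation gene Mki67, the only ones in the 72 cells. The DKO 2 cell had 2 UMIs of Cd8b1 and 0 of Cd8a, and the Control 1 cell 9 and 4. Summed over the enterocyte list, of which all 10 genes had a UMI and Fabp2 was the most abundant, the level was 67895 CPM in Control 1, 797 in Control 2, 1777 in DKO 1 and 16060 in DKO 2. Without the pair of cells it was 3001, 797, 1777 and 1512 CPM. Results were therefore also computed without any cell over 20000 UMIs, in the classes compared with as well, a choice made after seeing the data. Neutrophil S100a8 and S100a9 were at 1411 and 1828 CPM in Control 1 and at 0 in the other mice. All 264 of these UMIs were in 1 cell, which is also the only homing-gate cell of Control 1 described below and held 8 UMIs each of Fcer1g and Tyrobp.

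Neutrophil, macrophage and B cell RNA was otherwise low. Macrophage Lyz2 had 31 UMIs, all in DKO 1 and 29 of them in 1 homing-gate cell. Summed over the macrophage and neutrophil list, the levels were 3289, 0, 156 and 0 CPM, and C1qb, Csf1r and Csf3r were at 0. The B cell list summed to 1141, 90.6, 182 and 244 CPM, with Cd74 the larger part in Control 1 and DKO 2 (675 and 174 CPM), Ighm in DKO 1 (118 CPM) and Cd74 at 0 in Control 2, and to 136, 90.6, 182 and 82.5 CPM without the largest cells. The plasma cell list summed to 12.3, 36.2, 84.4 and 256 CPM, and to 0, 36.2, 84.4 and 0 without the largest cells. The sums over all cells were for the endothelial and stromal list 12.3, 18.1, 38.0 and 23.3 CPM, for the natural killer or innate lymphoid list 12.3, 145, 67.5 and 0, and for the erythroid list 12.3, 0, 12.7 and 0.

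Cre, Foxc1 and Foxc2 were looked for first, as the genotype concerns them. In CD8 alpha beta cells Cre had 0 UMIs in each mouse, and so had Foxc1 and Foxc2, where 3 counts would be 36.8, 54.3, 12.7 and 34.9 CPM. Over all kept cells Cre had 0, 0, 4 and 3 UMIs, so it was seen in both EC-Foxc-DKO libraries and in neither Control library. Foxc1 had 9, 11, 6 and 3 UMIs there, and Foxc2 had 0 in each.

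Of the pathway lists Ccl5 had the highest mean level over the 4 mice. It is a chemokine that attracts T cells and monocytes, and was at 10381 CPM in Control 1, 31650 in Control 2, 13316 in DKO 1 and 9838 in DKO 2. Gzma was at 4957, 8642, 4564 and 4291 CPM. Without the largest cells of Control 1 and DKO 2, Ccl5 was at 18595 and 23253 CPM in these mice and Gzma at 8502 and 10142, so that DKO 2 went from the lowest Gzma level to the highest. In Control 1 the enterocyte gene Fabp2, at 32580 CPM, lay above Ccl5, and it was at 705 CPM without the largest cell. UMIs count transcript ends, so these levels do not scale with transcript length. Ccl4, another chemokine of activated T cells, averaged 2174 ± 1397 CPM (SD, n = 4 mice), and Nkg7, a cytotoxic granule protein, 1263 ± 608. Of the receptor and signalling genes Trbc2 averaged 1285 ± 498, Ptprc (CD45) 1171 ± 441, Trbc1 598 ± 382 and Lat 398 ± 178 CPM. The chaperones Hsp90ab1 (1895 ± 980) and Hspa8 (1763 ± 811) and the antigen-presentation genes B2m (1865 ± 436) and H2-K1 (1776 ± 434) were of similar size. Without the largest cells the means were 3171 ± 2502 for Ccl4, 1575 ± 357 for Nkg7, 1654 ± 81.3 for Trbc2, 1552 ± 252 for Hsp90ab1, 1334 ± 358 for Hspa8 and 2126 ± 296 for B2m. Hsp90ab1 of DKO 2 went from 3221 to 1347 CPM, and Ccl4 of Control 1 from 3706 to 6774.

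The regulators, immediate early genes and residence genes averaged at most 874 CPM in sums over all cells, the largest cells included. Among regulators Nr4a2, an orphan nuclear receptor induced by receptor signalling, averaged 476 ± 327 CPM, Id2 239 ± 166 and Nr4a1 136 ± 87.5. The immediate early genes Junb, Fos, Btg2 and Jund averaged 874 ± 315, 797 ± 432, 574 ± 208 and 496 ± 72.6. The residence genes Rgs1, Cd69, Itgae and Cd160 averaged 762 ± 288, 413 ± 165, 391 ± 195 and 273 ± 267. Ccr9, the receptor for the small intestinal chemokine CCL25, averaged 181 ± 45.4 and Cxcr6 138 ± 79.8.

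Interferon-induced Ifi27l2a averaged 324 ± 260 CPM and Ly6c2 191 ± 149. Of the inhibitory receptor list Ctla4 reached 155 ± 148, and Lilrb4a, Lag3 and the transcription factor Tox, which the list also holds, stayed at or under 29.9 on average. For cytokine receptors the means were 237 ± 147 for Il7r, 166 ± 64.0 for Ifngr1 and 158 ± 86.1 for Il2rg. Of the cell cycle list Hmgb2 averaged 371 ± 257 and Tubb5 222 ± 125, while Birc5 was at 0 once the largest cells were left out.

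The 72 cells fell almost wholly into 2 ranges. A cell was put in the homing gate when it had a UMI of Ccr7 or Lef1 (a transcription factor of naive T cells) and none of Itgae, Gzma and Gzmb, and in the resident gate for the reverse. These gates cut a range of cells and define no cell type. The homing gate held 28 cells, the resident gate 36, both sets of genes were seen in 6 cells and neither in 2. Homing-gate cells had a median of 4 UMIs of their genes (range 1 to 9), and resident-gate cells a median of 48 (range 1 to 442), with median depths of 5788.5 and 4218.5 UMIs.

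**Figure D1:**
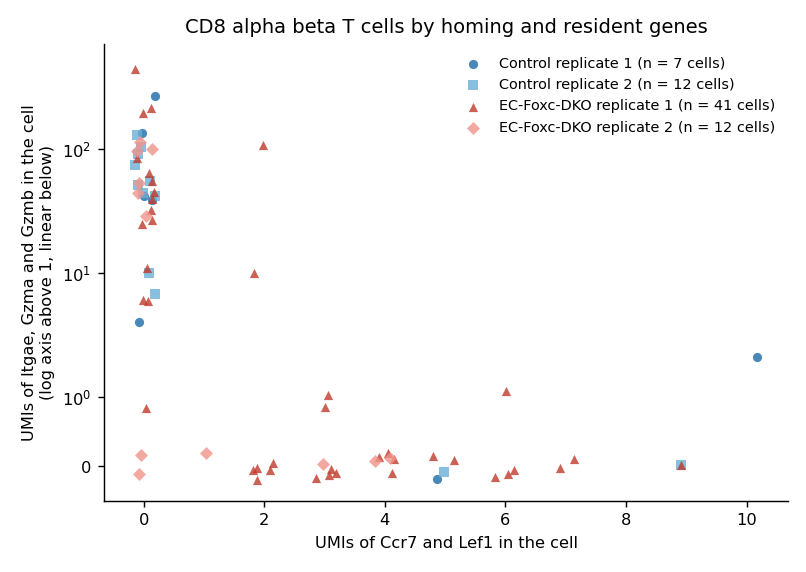
Each point is 1 of the 72 CD8 alpha beta T cells, with UMIs of Ccr7 and Lef1 on the x axis and of Itgae, Gzma and Gzmb on the y axis (log above 1), shifted by up to 0.2 to separate ties; colour and shape give the mouse. Of the 72 cells, 28 lie along the bottom and 36 along the left edge, with 6 off both axes and 2 at the origin.

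The homing gate took 1 of 7 cells in Control 1 (14.3%, exact 95% interval 0.361 to 57.9), 2 of 12 in Control 2 (16.7%, 2.09 to 48.4), 21 of 41 in DKO 1 (51.2%, 35.1 to 67.1) and 4 of 12 in DKO 2 (33.3%, 9.92 to 65.1). The share was higher in both EC-Foxc-DKO mice, on average by 26.8 percentage points, and the intervals overlap. With 2 mice against 2, an exact permutation test cannot go below p = 0.333, so no test was made. When every cell was thinned to 1000 UMIs, with 0 cells left out, the shares averaged over all possible draws were 14.9, 10.97, 31.0 and 17.1%, a difference of 11.1 points. B cells, which share Ccr7 and S1pr1 with naive T cells, made up 8.06, 5.18, 43.0 and 5.39% of kept cells. Of barcodes that met the gate, 0, 40.0, 16.3 and 85.7% were left out by the mitochondrial limit. At limits of 20% and 5% the homing share differed by 25.1 and 65.7 points. At 5% the DKO 2 share rested on its cell of 49610 UMIs alone, which is in the homing gate. The part of B cells in the result was not tested.

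**Figure D2:**
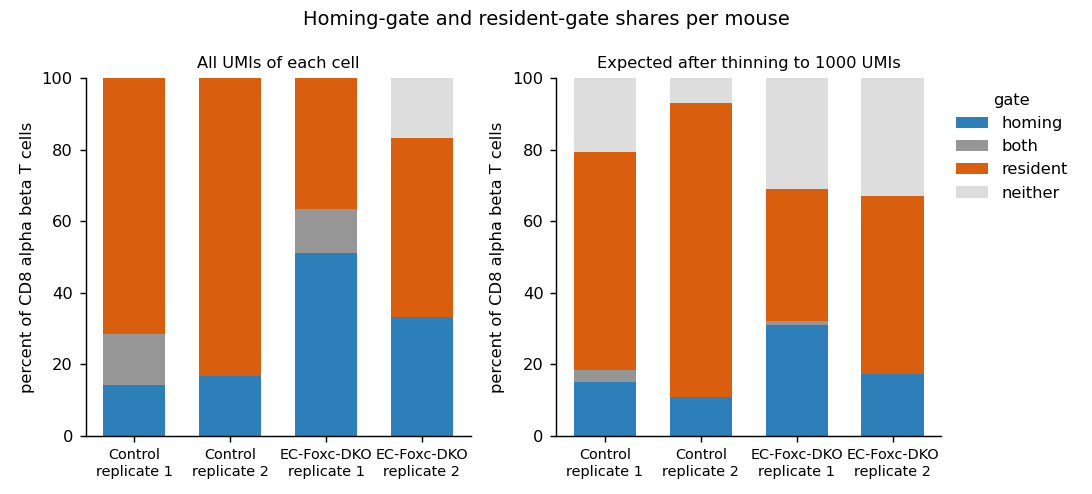
Stacked bars give the percent of CD8 alpha beta T cells of each mouse in the homing, resident, both and neither gates, from all UMIs (left) and when thinned to 1000 UMIs per cell (right). On the left the homing share is 14.3 and 16.7% in Control 1 and 2, and 51.2 and 33.3% in DKO 1 and 2.

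Of all kept cells, CD8 alpha beta cells were 0.455% in Control 1 (exact 95% interval 0.183 to 0.935), 3.11% in Control 2 (1.62 to 5.37), 1.44% in DKO 1 (1.04 to 1.95) and 1.08% in DKO 2 (0.558 to 1.88). The 2 Control mice lie below and above both EC-Foxc-DKO mice, so the genotypes overlap. Of T cells they were 8.14, 15.2, 13.0 and 11.2%, beside 61.6, 57.0, 49.5 and 30.8% gamma delta cells.

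The subsets differed in genes outside the gates. Resident-gate cells had more Ccl5, Ccl4, Rgs1, Itga1, Nr4a2 and Cd7, and homing-gate cells more of the ribosomal protein gene Rps19. Of 556 genes tested between the subsets of the same mice, 12 were higher and 1 lower in resident-gate cells, or 2.16% and 0.18%, 2.34% in all. At a mitochondrial limit of 5%, 0 of 491 genes passed with edgeR, 27 at an unadjusted p under 0.05, so each of the 13 calls was lost there. At that limit Control 2 had no homing-gate cell and DKO 2 no resident-gate cell, so only Control 1 and DKO 1 held both subsets. Over 14 alternatives the log2 change of Ccl5 ran from 6.73 to 10.7. The gate genes were not tested. The pair of largest cells fell into opposite gates: the Control 1 cell held 37502 of the 66751 resident-gate UMIs of that mouse, and the DKO 2 cell 49610 of its 60798 homing-gate UMIs.

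Ccl5 was at 12674 CPM in Control 1, 41915 in Control 2, 35057 in DKO 1 and 43418 in DKO 2 in resident-gate cells, against 0, 0, 474 and 32.9 in homing-gate cells. Without its largest cell the resident-gate value of Control 1 was 27967. The 4 pairs were far apart, and the log2 change was 8.18 (SE 0.76, adjusted p = 0.000301). Every one of the 36 resident-gate cells had Ccl5, with at least 14 UMIs, and 5 of the 28 homing-gate cells had any. Ccl4 was at 4404, 3911, 3990 and 2366 CPM in resident-gate cells and at 931, 0, 59.2 and 197 in homing-gate cells. It rose by 4.41 on the log2 scale (SE 0.68, adjusted p = 0.0063), again without overlap.

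Itga1 encodes CD49a, a collagen-binding integrin chain of tissue T cells. It was at 195, 648, 279 and 1080 CPM in resident-gate cells, against 0, 0, 0 and 32.9, in all 82 UMIs against 2. The ratio of the summed levels was 40.6 (95% counting interval 10.9 to 341, adjusted p = 0.00509). Without cells over 20000 UMIs Itga1 did not pass the filter on low counts and was not tested, with 444, 648, 279 and 1080 CPM in resident-gate cells and 0 in each homing-gate sum. Rgs1, which damps chemokine receptor signalling, was at 674, 1536, 1569 and 3189 CPM against 116, 74.0, 50.8 and 16.4. That is a log2 change of 5.22 (SE 0.71, adjusted p = 0.00361).

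Nr4a2 was at 464, 1248, 745 and 1338 CPM in resident-gate cells against 0, 74.0, 8.46 and 16.4 in homing-gate cells, a ratio of 54.5 (18.3 to 267, adjusted p = 0.00196). Cd7, a costimulatory receptor, was at 449, 840, 1782 and 3035 CPM against 116, 74.0, 118 and 16.4 (log2 change 4.51, SE 0.77, adjusted p = 0.011). In each of these genes the lowest resident-gate value lay above the highest homing-gate value. The named genes were picked for a large change of the same sign in every mouse, so such gaps follow in part from the choice. Actn2 (4.43), Gimap7 (4.14), Ntan1 (3.83), AW112010 (3.03) and Btg2 (2.65), an antiproliferative early gene, also rose on the log2 scale.

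Klf2 drives S1pr1 in naive T cells. It was at 6285 CPM in Control 1, 1923 in Control 2, 753 in DKO 1 and 197 in DKO 2 in homing-gate cells, against 0, 0, 13.3 and 51.4 in resident-gate cells. Without its largest cell the homing-gate value of DKO 2 was 894. The subsets did not overlap, but Klf2 did not pass the filter on low counts and was not tested with all cells. Without cells over 20000 UMIs it was tested and fell by 7.14 in resident-gate cells (SE 0.78, adjusted p = 0.00208). Its 54 homing-gate UMIs of Control 1 were in the single homing-gate cell of that mouse, the cell with neutrophil RNA. Klf2 was present in 27 of 28 homing-gate cells and 2 of 36 resident-gate cells. Satb1, a chromatin organiser of T cells, was at 233, 740, 406 and 181 CPM in homing-gate cells against 0, 48.0, 26.6 and 51.4. Satb1 and S1pr1 were not tested either, for the same reason, and 21 of 28 homing-gate cells and 1 of 36 resident-gate cells had a UMI of it.

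**Figure D3:**
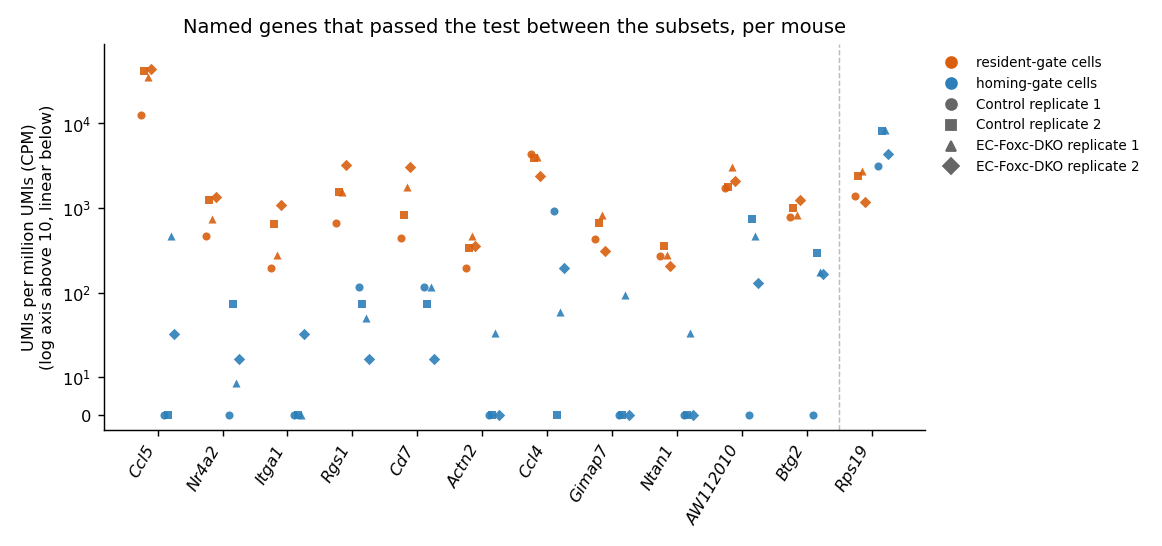
Each point is the level of a gene (CPM, log axis above 10) in the summed resident-gate (orange) or homing-gate (blue) cells of 1 mouse, for the 12 named genes that passed the test; genes left of the dashed line were higher in resident-gate cells. For Ccl5 the resident-gate values run from 12674 to 43418 CPM and the homing-gate values from 0 to 474.

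The start regions of Itga1 and Klf2 can be set side by side, since these genes had opposite levels in the subsets without overlap between them. RefSeq entries on GRCm38.p6 give 300 bases around each start, 250 before and 50 after. Itga1 lies on the minus strand at chr13:115101915-115102214, and Klf2 on the plus strand at chr8:72318812-72319111. Capitals mark the letters CTTTGA (core of TCF and LEF factors) and CACCC (core of KLF factors), searched on both strands, where they read TCAAAG and GGGTG.
Itga1: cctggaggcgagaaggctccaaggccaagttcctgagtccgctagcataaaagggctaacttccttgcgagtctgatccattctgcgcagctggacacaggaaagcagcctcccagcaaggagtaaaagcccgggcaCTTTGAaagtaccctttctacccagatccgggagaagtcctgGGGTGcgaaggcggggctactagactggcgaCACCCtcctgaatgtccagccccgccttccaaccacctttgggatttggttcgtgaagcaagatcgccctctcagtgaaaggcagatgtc
Klf2: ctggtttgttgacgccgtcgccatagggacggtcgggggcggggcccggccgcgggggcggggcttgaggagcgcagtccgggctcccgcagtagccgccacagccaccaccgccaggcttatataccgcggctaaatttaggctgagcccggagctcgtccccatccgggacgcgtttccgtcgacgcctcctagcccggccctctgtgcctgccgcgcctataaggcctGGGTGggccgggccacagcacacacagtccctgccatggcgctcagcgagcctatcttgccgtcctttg
Itga1 held 1 match of CTTTGA and 2 of CACCC, and Klf2 held 0 and 1. Of 32544 promoter windows of this length, 16.0% hold CTTTGA and 57.7% hold CACCC. The core of RUNX factors, TGTGGT, which reads ACCACA on the other strand, was in neither window and is in 16.7% of all. A match is a description of letters and no evidence of binding.

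By list, the 1 tested homing and naive-state gene, Il7r, did not pass (−1.32), and the median of all genes tested was 0.27. Of 7 tested residence genes 2 rose (Itga1 and Rgs1, list median 1.27), as did 2 of 4 cytokine genes (Ccl4 and Ccl5), 1 of 2 natural killer receptor genes (Cd7), 1 of 2 regulators (Nr4a2) and 1 of 5 immediate early genes (Btg2). None passed among 8 receptor and signalling genes, 3 cytotoxic genes, 5 chaperones, 6 antigen-presentation genes, 2 cytokine receptors, or the 1 tested gene each of the interferon, cell cycle and chemokine receptor lists. Of the marker lists, 0 of 1 CD8 and 0 of 5 enterocyte genes passed.

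Of 80 ribosomal protein genes tested, a family looked at after its values were seen, 74 had a negative change, with a median of −0.45, beside 197 of all 556 genes with a median of 0.27. Of the 80, 1 passed: Rps19, at 3142, 8211, 8361 and 4392 CPM in homing-gate cells against 1378, 2399, 2766 and 1183, a fall of 1.51 (SE 0.26, adjusted p = 0.011). Without the 2 cells of over 20000 UMIs, 20 of 79 fell and 0 rose. The number of genes past the threshold was then 50 of 224 (22.3%), 26 higher (11.6%) and 24 lower (10.7%), 9 of them shared with the 13. The other 4 of the 13, Itga1, Actn2, Gimap7 and Ntan1, did not pass the filter on low counts in that fit. Nkg7 (2.05, SE 0.51) and Cd8a (1.33, SE 0.26) were among those that rose in resident-gate cells in that fit. Without Control 1, 35 genes passed, and without DKO 1, 1 gene.

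CD8 alpha beta cells were next set against the 287 gamma delta T cells of the same mice, the other large T cell class of the gut epithelium. They had more of the genes of recirculating T cells (Lef1, S1pr1, Ccr7, Klf2, Il7r) and more Cd6, Thy1 and Ms4a4b, and less Fcer1g, Tyrobp, Kit, Cd7, Gzma and Gzmb. Of 3168 genes, 17 were higher and 31 lower in CD8 alpha beta cells, or 0.537% and 0.979%, 1.52% in all. At a mitochondrial limit of 5%, 0 of 991 genes were higher and 11 lower, so none of the 17 was called there.

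Lef1 was at 123 CPM in Control 1, 127 in Control 2, 338 in DKO 1 and 69.8 in DKO 2, against 0, 3.82, 2.62 and 4.92 in gamma delta cells. It rose by 6.26 on the log2 scale (SE 0.58, adjusted p = 0.00137). S1pr1 was at 49.1, 54.3, 152 and 93.0 CPM against 0, 0, 1.31 and 0, or 51 UMIs against 1, a ratio of 168 (counting interval 28.8 to 6755, adjusted p = 0.00137). The classes did not overlap in either gene, nor in Ccr7, with 43 UMIs against 2 and a ratio of 70.7 (18.4 to 603, adjusted p = 0.0143).

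Klf2 was at 712, 471, 456 and 163 CPM against 46.0, 7.65, 10.5 and 29.5 (log2 change 4.57, SE 0.54, adjusted p = 0.0084). Il7r, the receptor chain for the survival cytokine IL-7, was at 36.8, 362, 329 and 221 CPM against 3.54, 19.1, 14.4 and 54.2. Its change was 3.71 (SE 0.52, adjusted p = 0.0135), and Control 1 lay within the gamma delta range. Ms4a4b rose by 5.15 (SE 0.39, adjusted p = 0.0006), Cd6 by 4.57, Slamf6 by 3.18, Thy1 by 3.15 and Satb1 by 2.93.

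Fcer1g and Tyrobp, adaptors that carry signals of natural killer and Fc receptors, were lower in CD8 alpha beta cells. Fcer1g was at 98.2, 0, 220 and 140 CPM against 2510, 2845, 2299 and 1010 in gamma delta cells (log2 change −4.04, SE 0.66, adjusted p = 0.0176). Within CD8 alpha beta cells it was confined to 6 of 72 cells, with up to 45 UMIs in 1. Tyrobp was at 98.2, 0, 165 and 93.0 CPM against 1607, 1744, 1440 and 576 (−3.64, SE 0.60, adjusted p = 0.0181), and was seen in 5 cells.

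Kit, the stem cell factor receptor, had 0 UMIs in CD8 alpha beta cells and 217 in gamma delta cells, at least 22.0-fold lower with a floor of 3 counts over the group (adjusted p = 0.0166). Klrb1a, a killer lectin-like receptor, had 0 against 101 UMIs, at least 10.2-fold lower (adjusted p = 0.0491). Cd7 was at 380, 652, 709 and 698 CPM against 3590, 3805, 3618 and 1758, a fall of 2.21 (SE 0.33, adjusted p = 0.0151). The values did not overlap.

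Gzma was at 4957, 8642, 4564 and 4291 CPM in CD8 alpha beta cells against 18992, 25620, 24640 and 12760 in gamma delta cells. It fell by 1.73 (SE 0.30, adjusted p = 0.0222), or 3.31-fold, and Gzmb by 1.72 (SE 0.30, adjusted p = 0.0222). Among receptors and regulators, Il2rb (−2.26), Lag3 (−2.87), Cd200r1 (−3.54), Ikzf2 (Helios, −2.66) and Rgs1 (−1.81) were also lower. The gamma delta receptor gene Tcrg-C1, not used by either gate, fell by 5.20 (SE 0.67, adjusted p = 0.0101).

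Other genes at or near 0 in CD8 alpha beta cells are given by their UMIs. Cd200r2 had 1 against 248, a ratio of 75.4 (13.4 to 2989), and Glp1r, the receptor for the gut hormone GLP-1, had 3 against 276, a ratio of 28.0 (9.47 to 136). Arrdc4 had 2 against 132 (ratio 20.1, interval 5.45 to 167) and Gcnt1 3 against 148 (interval of the ratio 5.03 to 73.5). Among higher genes, Lat, an adaptor of receptor signalling, rose by 1.99 and the NF-kB inhibitor Nfkbia by 2.42.

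**Figure D4:**
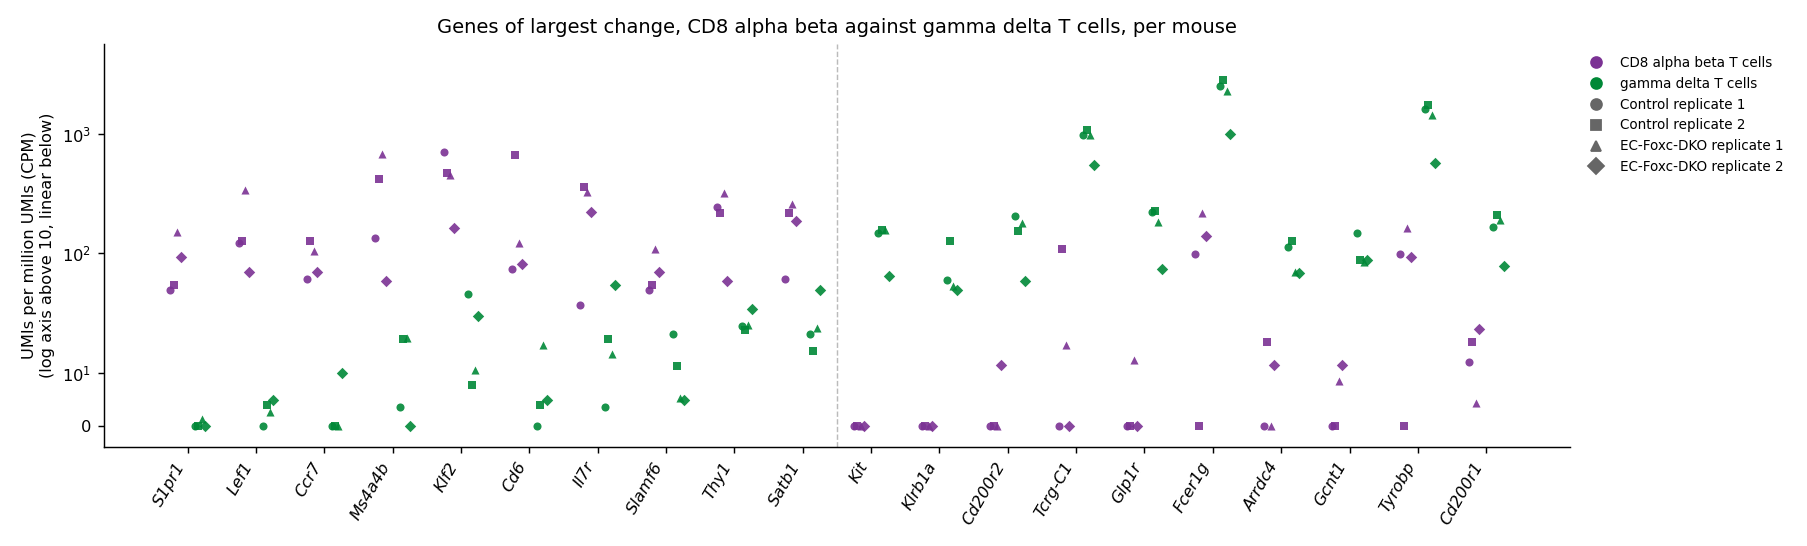
Each point is the level (CPM, log axis above 10) of a gene in the summed CD8 alpha beta (purple) or gamma delta (green) T cells of 1 mouse, for the 10 genes of largest change in each direction; genes left of the dashed line were higher in CD8 alpha beta cells. S1pr1 runs from 49.1 to 152 CPM in CD8 alpha beta cells and from 0 to 1.31 in gamma delta cells, and Kit is at 0 in all 4 CD8 alpha beta sums.

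By list, 6 of 8 homing and naive-state genes were higher in CD8 alpha beta cells (median 4.14, against −0.02 for all genes tested), as were 3 of 14 receptor and signalling genes (Lat, Cd6, Thy1; 0.38). Of 8 natural killer receptor genes 4 were lower (Fcer1g, Tyrobp, Cd7, Kit; median −2.75, the same with Kit at its bound), of 10 cytotoxic genes 2 (Gzma, Gzmb; −0.53), of 4 inhibitory receptors 2 (Lag3, Cd200r1; −2.25), of 16 residence genes 1 (Rgs1; −0.71) and of 7 regulators 1 (Ikzf2; −0.60). Cytokine receptors had 1 in each direction of 7, immediate early genes 1 higher of 11 (Nfkbia), and chemokine receptors 2 higher of 7. None passed of 7 cytokines, 8 chaperones, 6 interferon genes, 3 cell cycle genes and 9 antigen-presentation genes. Of the marker lists, 1 of 3 CD8 genes (Gzma) and 1 of 3 gamma delta genes (Tcrg-C1) were lower, and 0 of 2 helper, 0 of 3 B cell, 0 of 1 plasma cell and 0 of 9 enterocyte genes passed.

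Without cells over 20000 UMIs of either class the count was 238 of 2585 genes (9.21%), 145 higher (5.61%) and 93 lower (3.6%), and included 45 of the 48. The other 3, S1pr1, Slamf6 and Pdlim1, did not pass the filter on low counts in that fit. In that fit 8 of 16 receptor and signalling genes were higher in CD8 alpha beta cells, among them the coreceptors Cd5 (7.42, SE 0.61) and Cd2 (5.95, SE 0.65), and 7 of 8 natural killer receptor genes were lower. Cd5 had 67 UMIs in CD8 alpha beta cells, at 85.9, 507, 127 and 23.3 CPM, and 1 UMI in gamma delta cells. Without Control 2, 4 genes passed, and without DKO 1, 0 passed with edgeR.

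The 34 CD4 T cells (1, 3, 26 and 4 in the order Control 1, Control 2, DKO 1, DKO 2) give a coarser comparison. CD8 alpha beta cells had more Ccl5, Ccl4, Gzma, Gzmb, Cd7, Itgae, Nr4a2, Rgs1, Plac8 and Cd8a, and less Maf. These 10 and 1 genes are 1.32% and 0.132%, or 1.45% in all, of the 760 tested. Without cells over 20000 UMIs of either class 15 of 424 genes passed (3.54%), 11 higher (2.59%) and 4 lower (0.943%), 9 of them shared with the 11. Itgae and Nr4a2 were the other 2 of the 11 and did not pass the filter on low counts there. Ccl4 had 846 UMIs against 0, at least 119-fold higher with a floor of 3 counts over the group (adjusted p = 6.49e-07), and Cd8a 323 against 0, at least 45.2-fold higher (adjusted p = 7.13e-05), though Cd8a may follow the Cd8b1 gate.

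Ccl5 had 6593 UMIs against 2, a ratio of 1385 (383 to 11442), and Gzma 2331 against 3, a ratio of 327 (112 to 1585). Cd7 (interval of the ratio 17.0 to 514) and Nr4a2 (8.01 to 117) were also counted in at most 3 UMIs of CD4 cells. Itgae was at 515, 598, 241 and 209 CPM against 0, 0, 24.5 and 0, a rise of 3.95 (SE 0.74, adjusted p = 0.00359). Gzmb rose by 4.06, Plac8 by 3.60 and Rgs1 by 2.67.

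Maf, a factor of helper T cells that drives cytokine genes, was at 172, 0, 4.22 and 81.4 CPM in CD8 alpha beta cells against 531, 577, 569 and 930 in CD4 cells. Without the largest cells the CD8 alpha beta values of Maf were 22.7, 0, 4.22 and 0 CPM, so 1 cell in each of Control 1 and DKO 2 held most of it. It fell by 3.81 (SE 0.74, adjusted p = 0.00514). By list, CD8 markers (3 of 3), cytotoxic genes (2 of 4), cytokines (2 of 3), residence genes (2 of 7), natural killer receptors (1 of 2) and regulators (1 of 1) had members that were higher, and 1 of 2 helper markers was lower. The lists are not independent. The CD8 markers were Cd8a, Gzma and Itgae, and Gzma is also counted among cytotoxic genes and Itgae among residence genes. None passed of 8 homing and naive-state genes, 10 receptor and signalling genes, 10 immediate early genes, 6 chaperones, 6 antigen-presentation genes, 5 enterocyte genes, 2 genes each of the cytokine receptor, chemokine receptor and cell cycle lists, or 1 each of the inhibitory receptor and interferon lists.

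The genotype comparison asks whether loss of Foxc1 and Foxc2 in endothelium goes with a change in these T cells. No gene passed: 0 of 1166 with edgeR (0.0%), 26 at an unadjusted p under 0.05, and 1 with DESeq2, Ifng. With 2 mice against 2 and as few as 7 cells in a mouse, a gene that did not pass is not shown to be alike. In summed counts, fewer cells of a kind and less RNA per cell cannot be told apart.

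Ifng, the cytokine interferon gamma, had the lowest p. It was at 933 CPM in Control 1 and 507 in Control 2, and at 50.7 in DKO 1 and 34.9 in DKO 2, so both EC-Foxc-DKO values lay below both Control values. The log2 change was −4.13 (SE 0.69, adjusted p = 0.807 with edgeR). The cells with a UMI were 3 of 7, 4 of 12, 5 of 41 and 2 of 12, and a single Control 1 cell held 65 of that mouse's 76 UMIs. Of the 14 such cells 12 were in the resident gate, and in resident-gate cells alone the change was −3.14 (SE 0.66, adjusted p = 0.195). Over 14 alternatives the change was negative in each, from −6.69 to −3.14. It passed with DESeq2 and with no filter on low genes. Fits with a mouse left out had 1 mouse in an arm, so they are read for the change only.

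The other 9 genes of lowest p did not pass either. They were picked by their p, so a gap between the genotypes follows from the choice. Ctla4, an inhibitory receptor, was at 160 CPM in Control 1 and 362 in Control 2, against 50.7 and 46.5. Nr4a3, an early gene of receptor signalling, was at 209 and 181 against 42.2 and 23.3, and Ccl4 at 3706 and 2953 against 1364 and 674. The adjusted p of each was 0.998 with edgeR. Without the largest cells Ccl4 was lowest in DKO 1, at 1364 CPM, and highest in Control 1, at 6774. Its change was then −1.77 (SE 0.40, adjusted p = 0.909 with edgeR). Ccl4 was higher in resident-gate than in homing-gate cells. In resident-gate cells alone, DKO 1 lay between the Control mice and DKO 2 below both. The part of the gate shares in the Ccl4 difference was not tested.

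Nfkbia, Litaf, Gzmk, Traf1 and Ptger4 had changes between −1.68 and −2.25, each with adjusted p = 0.998 with edgeR. The tenth, the enterocyte gene Apoa1, was at 10688 CPM in Control 1 and 236 in Control 2, against 414 and 256, and 871 UMIs in Control 1 became 38 without its largest cell. Without the largest cells the values of Litaf overlapped, at 386 and 181 CPM against 38.0 and 192.

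**Figure D5:**
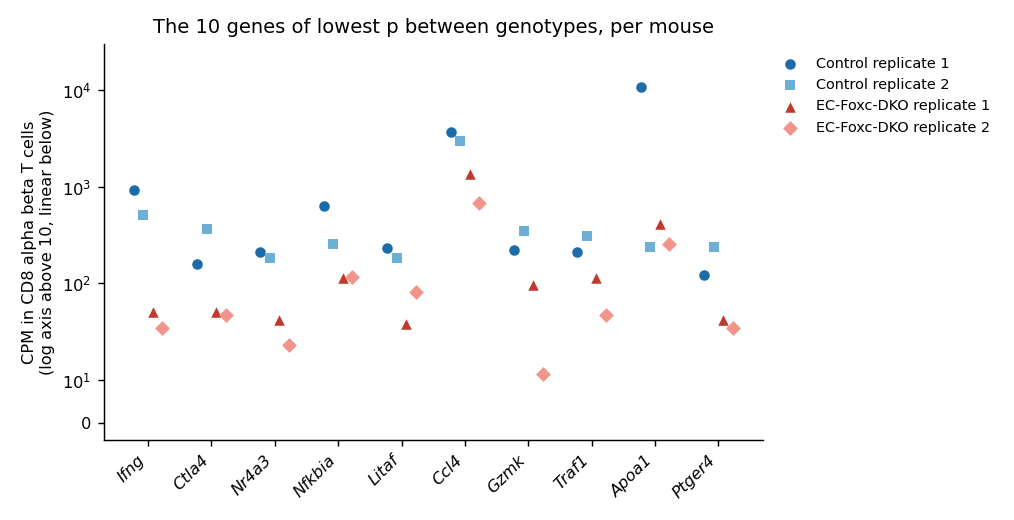
Each point is the level (CPM, log axis above 10) in the summed CD8 alpha beta T cells of 1 mouse for the 10 genes of lowest p between genotypes, none of which passed the threshold. The genes were picked by their p, so gaps between the genotypes follow from the choice. Apoa1 is high in Control 1 alone.

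Lists showed 0 members past the threshold in either direction between genotypes. Medians were −1.15 for 5 cytokine genes, −0.74 for 12 residence genes, −0.71 for 8 cytotoxic genes, −0.78 for 11 immediate early genes, −0.35 for 11 receptor genes, −0.51 for 8 antigen-presentation genes and −1.49 for 4 regulators. They were −0.68 for 4 interferon genes and −0.70 for 2 chemokine receptors, and the 1 inhibitory receptor was Ctla4. They were 0.43 for 6 homing and naive-state genes, 0.97 for 4 natural killer receptor genes, 0.90 for 6 chaperones, 0.71 for 2 cell cycle genes and 0.33 for 3 cytokine receptors. Among markers the median was −3.58 for 8 enterocyte genes, and −0.71 for 3 CD8 genes. The median of all genes tested was −0.08. Without the largest cells the enterocyte median was −0.11 over 3 genes, the regulator median −0.61 over 2, the interferon median −0.19 over 3 and the 1 chemokine receptor tested was at −0.31. The medians were then −0.37 for residence, −0.35 for cytotoxic, −0.24 for antigen-presentation and −0.36 for CD8 genes, 0.06 for chaperones, 0.04 for cell cycle genes, and 0.50 for both homing genes and cytokine receptors, beside −0.08 for all genes tested.

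Whether the genotype difference was the same in both T cell classes was tested as an interaction. With gamma delta cells 121 of 4557 genes passed (2.66%), 2 higher (0.0439%) and 119 lower (2.61%), including 9 of 10 enterocyte markers and Ifng. Without cells over 20000 UMIs of either class 5 of 3587 passed (0.139%), Lyz2 and Cd74 higher (0.0558%) and Ifng, Xcl1 and Reg3b lower (0.0836%). Ifng then differed by −4.37 (SE 0.95, adjusted p = 0.0200), with 2, 4, 13 and 0 UMIs in all gamma delta cells. Over 12 alternatives its difference was negative in each, from −6.24 to −0.54, and passed in 5, with adjusted p from 0.00157 to 1.00. It was lost among others at limits of 20% and 5% and without Control 1 (−2.84), Control 2 (−4.82) or DKO 1 (−0.54), and 65 of the 76 Ifng UMIs of Control 1 were in 1 cell. Xcl1, a chemokine for dendritic cells, differed by −2.82 with all cells and did not pass (SE 1.04, adjusted p = 0.267 with edgeR). Without cells over 20000 UMIs it differed by −3.27 (SE 0.73, adjusted p = 0.0208). The difference was −0.71 without Control 1, −3.77 without Control 2, −9.14 without DKO 1 and −1.58 without DKO 2. Without cells over 20000 UMIs Xcl1 was at 773, 54.3, 50.7 and 0 CPM in CD8 alpha beta cells, with 34 UMIs in Control 1. It was at 535, 574, 488 and 1044 CPM in all gamma delta cells. With CD4 cells 1 of 1407 genes passed (0.0711%), the enterocyte gene Fabp2, and without cells over 20000 UMIs 1 of 698 (0.143%), Nkg7.

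Receptor variable genes (Trav and Trbv) were caught in 15 of the 72 cells, covering 16 genes, and in 1 of 1425 B cells and 0 of 2484 epithelial cells, the latter allowing a share of cells with such a UMI of up to 0.121%. Gamma delta cells had one in 38 of 287. By mouse the CD8 alpha beta cells were 2 of 7, 2 of 12, 11 of 41 and 0 of 12. In Control 1 both such cells held Trbv3 together with Trav16, and 0 gamma delta, B or epithelial cells did. One of the 2 cells was the Control 1 cell of 37502 UMIs, and each gene was seen in 1 or 2 UMIs.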

How the data were processed

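Single-cell RNA-seq libraries of 1 jejunum per mouse were made from 4 mice, 2 per genotype. Per the labels, the authors aligned reads to mm10 with Cell Ranger 4.0.0, and deposited whole-number UMI counts per gene and barcode. A Cre sequence is 1 of the 32286 features. The deposited table of all libraries joined was not used. The study's methods name an earlier Cell Ranger release than the labels.

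Kept barcodes had at most 10% of UMIs on the 13 mt- genes. Cells were taken by the stated gate, and no doublets were called or removed. Counts were summed per mouse and class, and edgeR 4.0.16 (filterByExpr, TMM, glmQLFit, glmQLFTest) was run in R 4.3.3 with Benjamini-Hochberg adjustment and a threshold of 0.05. Mouse was a block in the class and subset comparisons. Gate genes and mt- genes were left out of the tests. SE is the log2 change divided by the square root of F. Intervals are exact binomial at 95% and cover counting error only. A floor is 3 counts. Thinned shares are exact expectations at 1000 UMIs per cell.

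Named genes were the markers, Foxc1, Foxc2 and Cre, the 10 genes of lowest p between genotypes, the 10 of largest change per direction in class and subset comparisons (past 0.05, same sign in every mouse, mean of at least 50 CPM in the higher class), every list member that passed, the 4 most abundant members of each list, and up to 10 interaction genes. As the same sign in every mouse was required, gaps between classes or subsets in the named genes follow in part from the choice. There were 15 pathway lists and 11 marker lists. The members and lists were chosen with earlier results of these data known. A few genes, 1 of them in the homing gate as first fixed, are not reported here, and that gate was redrawn from its other genes after the results were known. The redraw moved 1 cell out of the homing gate, lowered the number of genes past the threshold between subsets, and took Klf2 and Satb1, which had passed, below the filter on low counts. The scripts were tested on simulated data with known changes. The genotype fit called 0% of 89 genes with a log2 change of 2 in size. The fit against gamma delta cells called 51.2% of 80 such genes, and the subset fit 63.6% of 77.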

Additional observations from a re-analysis of the deposited data

Results flagged for a closer look

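The genotype difference of 121 genes differed between CD8 alpha beta and gamma delta T cells. The named ones were Lyz2 (difference of log2 changes 13.2), Slc5a1 (−7.30), Clca4b (−6.90), Tm4sf5 (−6.83), Mttp (−5.96), Ifi27l2b (−6.76), Apoc2 (−8.33), Mep1b (−7.43) and Cyp3a13 (−6.35). Among them Slc5a1, Mttp and Mep1b are genes of absorptive enterocytes. In Control 1, Apoc2 had 311 UMIs with the largest CD8 alpha beta cell and 6 without it, and Fabp2 2655 and 31. Enterocyte markers in gamma delta cells summed to 2942, 975, 11917 and 78024 CPM in the order Control 1, Control 2, DKO 1, DKO 2. Lyz2 had 31 UMIs in CD8 alpha beta cells, all in DKO 1, and 244, 1, 13 and 0 in gamma delta cells. Without cells of mixed lineage 0 of 764 genes passed with edgeR, and without Control replicate 1 0 of 5459. Against CD4 cells 1 gene differed, Fabp2 (−3.04).

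Barcodes that met the CD8 alpha beta gate but had more than 10% mitochondrial UMIs numbered 0 in Control 1, 8 in Control 2, 8 in DKO 1 and 72 in DKO 2, or 0, 40.0, 16.3 and 85.7% of those meeting the gate. Gamma delta barcodes lost 19.7, 48.3, 14.8 and 83.0%. Of these barcodes 0, 3, 6 and 33 had 10 to 20%. A limit of 20% takes these in, and the results at that limit are among those given for other processing. The part of barcodes over 20% was not tested.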

How the results depend on the processing

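The counts of genes past the threshold moved widely, and the cause was not tested. Between genotypes the 0 genes became 1 with DESeq2, 29 with no filter on low genes and 1 in resident-gate cells only, and 13 to 61 with a mouse left out, a count that then rests on 1 mouse in an arm assumed to vary like the others. Against gamma delta cells the 48 became 76 and 11 at mitochondrial limits of 20% and 5%, 224 in cells of 1000 to 10000 UMIs, 238 without cells over 20000 UMIs (added after seeing the data), 250 with no filter and 0 to 183 with a mouse left out. Of the 11 at 5%, 0 were higher in CD8 alpha beta cells, and without cells of mixed lineage 47 were higher and 25 lower. Against CD4 cells the 11 became 39 at 20%, 41 at 5%, 6 with gate genes at 2 or more UMIs, 57 with no filter and 14 to 23 with a mouse left out. Between subsets the 13 became 47 at 20%, 0 at 5%, 54 in cells of 1000 to 10000 UMIs, 50 without cells over 20000 UMIs, 33 with DESeq2, 22 with no filter and 1 to 35 with a mouse left out. The interaction with gamma delta cells fell from 121 to 0 at 20%, 1 at 5%, 0 without cells of mixed lineage, 3 in cells of 1000 to 10000 UMIs, 5 without cells over 20000 UMIs and 31 with DESeq2, and to 0 to 124 with a mouse left out, 0 being without Control replicate 1. The interaction with CD4 cells had 1 gene, and 0 at 20%, 5 with gate genes at 2 or more UMIs, 16 without cells of mixed lineage, 0 with DESeq2, 0 with no filter and 0 to 10 with a mouse left out; at 5% it could not be fitted. The CD8 alpha beta share of kept cells differed by −0.52 points (1.78% against 1.26%) and reversed to 0.52 at 20%, 1.99 without cells of mixed lineage and 0.45 of T cells, with −1.85 to 0.81 when a mouse was left out. The homing share differed by 26.8 points, by 65.7 at 5%, 11.4 without cells of mixed lineage and 11.1 when thinned. It stayed higher in EC-Foxc-DKO mice in each alternative run. At 5% the DKO 2 share rested on its cell of 49610 UMIs alone. Among named genes, Apoa1 between genotypes ran from −4.95 to 0.55 with a mouse left out, and the gamma delta interaction of Cyp3a13 from −6.86 to 1.13, both positive without Control replicate 1, and Fabp2 against CD4 cells became 1.44 without mixed cells, 0.39 in cells of 1000 to 10000 UMIs, 0.51 without cells over 20000 UMIs and ran from −6.08 to 1.82 with a mouse left out; no named gene of the class or subset comparisons reversed in the alternatives run. The main test did not pair the mice by replicate number. Deviations of same-numbered mice had a correlation of −0.49 over 1166 genes, and 0.083 without cells over 20000 UMIs. A value that moves so far with the largest cells cannot decide whether the numbers pair the mice. The median mitochondrial share of all barcodes was 22.9% in Control 1 and 14.3% in DKO 1, against 46.7% in Control 2 and 25.1% in DKO 2. With a replicate block 0 genes passed between genotypes, and with no replicate block 57 passed against gamma delta cells, 8 against CD4 cells and 17 between subsets. Depth limits genes below 36.8, 54.3, 12.7 and 34.9 CPM, the level of 3 counts.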
